A study of Gallus gallus with 6 samples.

Results

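The wild-type transcriptome of DT40 was described from 3 of the 6 arrays of the series, each hybridised with RNA of an independent culture of untreated wild-type cells. The 3 arrays were chosen by their labelled genotype, and no array of the IRF4-deficient cells entered any value given here. DT40 is a chicken B cell line from a bursal lymphoma caused by avian leukosis virus, so the cultures are repeats of 1 transformed line and not separate animals. The spread between them may therefore cover culture, labelling and hybridisation only. With a single group there was nothing to compare, and no test was made.

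In birds, B cells mature in the bursa of Fabricius, where they diversify a rearranged immunoglobulin gene by copying stretches from upstream pseudogenes, a process called gene conversion. DT40 is known for continuing this process in culture and for a high rate of homologous recombination, which made it a common host for gene targeting. It carries the B cell antigen receptor, whose signal passes through CD79 chains to the kinases LYN, SYK and BTK. Transcription factors such as PAX5 and EBF1 hold the B cell programme, whereas IRF4, PRDM1 and XBP1 act in the step towards antibody-secreting plasma cells.

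Each array held 43803 gene spots, and 67.8%, 68.2% and 62.4% of them were well above background in cultures 1, 2 and 3. No spot was saturated. Signal is given as a level, the log2 of the processed signal minus that of the array's 75th percentile, so a gene at 0 is as bright as that percentile. The lowest level called well above background was -6.83 in culture 1, -6.87 in culture 2 and -6.05 in culture 3, so the array of culture 3 had the higher floor. Of 153 negative control spots, 4, 2 and 3 were called well above background on the 3 arrays, and no such spot was called on all of them. The brightest negative control spot had a processed signal of 265, 248 and 585, beside 26.2, 26.6 and 44.3 at those lowest levels. A high value on 1 array alone can therefore occur without a transcript. Spike-in RNAs rose with their amount on each array, with a slope of 1.04, 1.03 and 1.07 in the scanner's own fit.

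Of the 31529 genes and unnamed sequences measured, 58.1% were well above background on all 3 arrays and 32.9% on none. A RefSeq name was available for 4886 genes, of which 3657 (74.8%) were detected on all 3 arrays and 926 (19.0%) on none. The other 303 were detected on some arrays, 162 of them in cultures 1 and 2 but not in culture 3. Named genes were brighter than the unnamed sequences, with a median level of -0.37 against -4.91. A gene or unnamed sequence was represented by its brightest probe. Named genes had more probes each (10619 for 4886 genes) than unnamed sequences (32984 for 26643), so their brightest probe was picked from more. Brightness is not abundance: in the 2595 detected genes with several probes, the brightest and dimmest probe differed by a median of 2.59 log2 units (6.01-fold). In 349 of these genes at least 1 probe was not detected on all arrays.

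**Figure D1:**
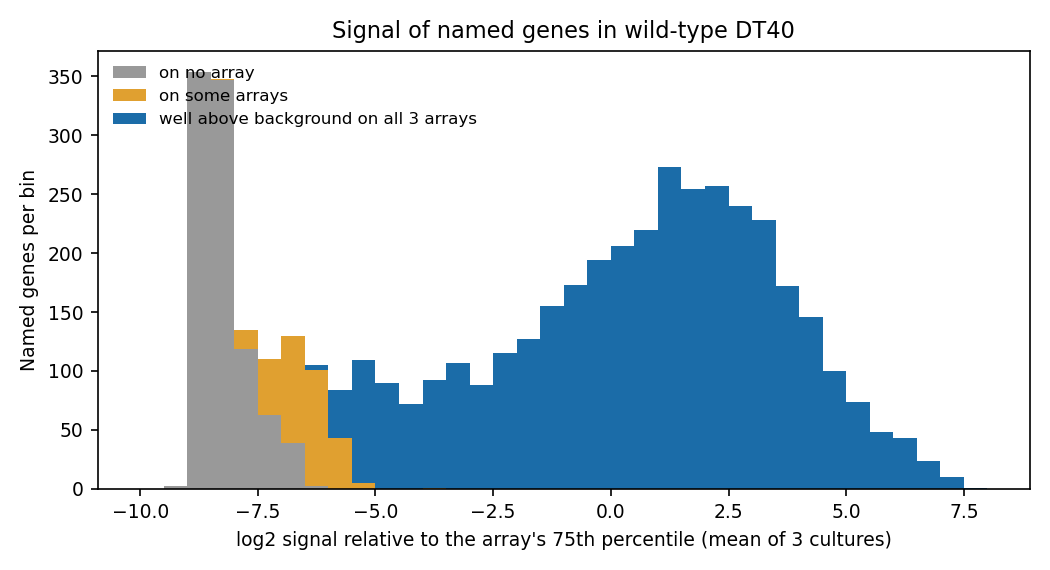
Number of named genes by level (log2 signal relative to the array's 75th percentile, mean of 3 cultures), stacked by detection: well above background on all 3 arrays, on some, or on none. Genes detected on all 3 arrays form a broad hill around a median of 1.08, and genes detected on none form a narrow peak at the lowest levels.

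Ribosomal protein genes made up most of the brightest genes of wild-type DT40. Of the 25 brightest named genes, 13 encode ribosomal proteins and 8 belong to the classic reference genes. Their mean signals ran from 317087 to 559659 on the scanner's linear scale, and the brightest lay 240 times above the median named gene. Together the 25 held 11.3% ± 0.35 (SD, n = 3) of the summed signal of all named genes, and the brightest 100 held 30.8% ± 0.63 (SD, n = 3).

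The brightest of all was TMSB15B, a thymosin that binds actin monomers, with levels of 7.66, 7.48 and 7.47 in cultures 1, 2 and 3. RACK1, a scaffold protein of the small ribosomal subunit, followed at 7.53, 7.42 and 7.44. HSP90AA1, a cytosolic chaperone, had 7.33, 7.11 and 6.92. These levels differ little between genes, and the order within the group could be changed by the choice of probe. The glycolytic enzymes GAPDH (7.09 ± 0.10, SD, n = 3), ENO1 (6.94 ± 0.04) and ALDOC (6.81 ± 0.03) were in the same group, with ACTB, cytoplasmic actin, at 6.83 ± 0.07. FTH1, the ferritin heavy chain, had 7.07 ± 0.09, and the translation factors EEF2 and PABPC1 had 6.79 ± 0.14 and 6.84 ± 0.06.

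TMSB15B, HSP90AA1 and ITGB1BP3 were the 3 members of the brightest 25 that stood in no gene list. ITGB1BP3, the RefSeq symbol used here for a nicotinamide riboside kinase, had levels of 6.97, 6.86 and 6.80. HINTW, a gene of the W chromosome, which only female birds carry, had 6.79, 6.73 and 6.76, and all 7 of its probes were detected, the dimmest at 5.34. Culture 1 had the highest level for each of the 25 genes. With another background correction (normexp) it was highest in 23 of the 25. Quantile normalization gives each array the same set of values, so it cannot keep such a shift. There cultures 1, 2 and 3 were highest in 8, 8 and 12 genes, tied cultures each being counted. The authors' deposited values share their median and 75th percentile across arrays and gave the same counts, so they may be no separate check.

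**Figure D2:**
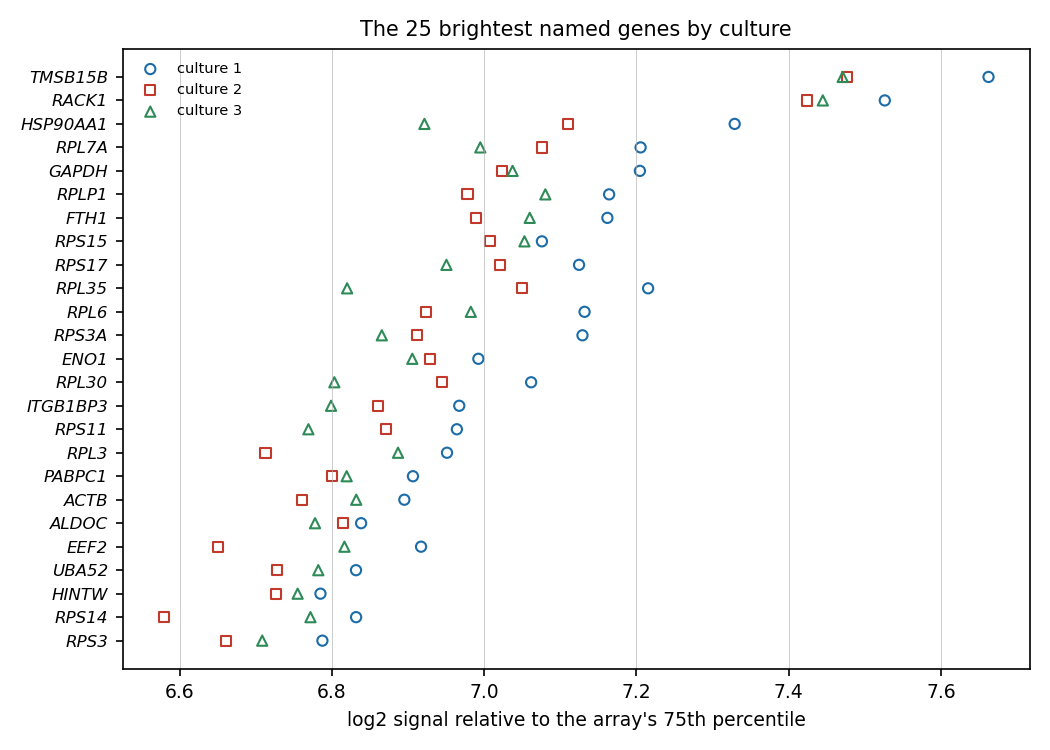
Level (log2 signal relative to the array's 75th percentile) of the 25 brightest named genes in each of the 3 wild-type cultures, 1 symbol per culture, ordered by mean. All levels lie between 6.58 and 7.66, and the symbol of culture 1 is the rightmost in each row.

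The housekeeping lists were detected almost in full. Of 105 such genes with a named probe, 103 (98.1%) were detected on all 3 arrays, beside 74.8% of all named genes, and 82 lay among the 489 brightest named genes. All 27 ribosomal protein genes were detected, at a median level of 6.68, and all 27 were among those 489. The dimmest of them were RPL37A, a protein of the large subunit, at 5.08 ± 0.02, RPL19 at 5.58 ± 0.04 and RPL37 at 5.81 ± 0.19.

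All 20 genes of the proteasome, the complex that degrades ubiquitin-tagged proteins, were detected, beside 74.8% of all named genes. The list median was 4.46. Its members ran from PSMD4 at 1.45 to PSMD3, a subunit of the regulatory lid, at 6.08. All 18 genes of oxidative phosphorylation were detected at a median of 4.68, from NDUFV1 at 2.61 to NDUFB5 at 6.01, both subunits of complex I.

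Of 41 classic reference genes, 39 (95.1%, beside 74.8% of all named genes) were detected on all 3 arrays. Levels differed widely among genes that are often used to normalise expression. TFRC, the transferrin receptor, had -2.10, -2.29 and -2.18 in the 3 cultures, and GUSB, the lysosomal beta-glucuronidase, had 0.94, 0.89 and 0.91. The exceptions were B2M and FTL. B2M, the light chain of MHC class I, had -6.23, -6.29 and -6.37 and was detected in cultures 1 and 2 but not 3. FTL, the ferritin light chain, had -8.35, -7.60 and -8.19 from its only probe and was detected in none.

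**Figure D3:**
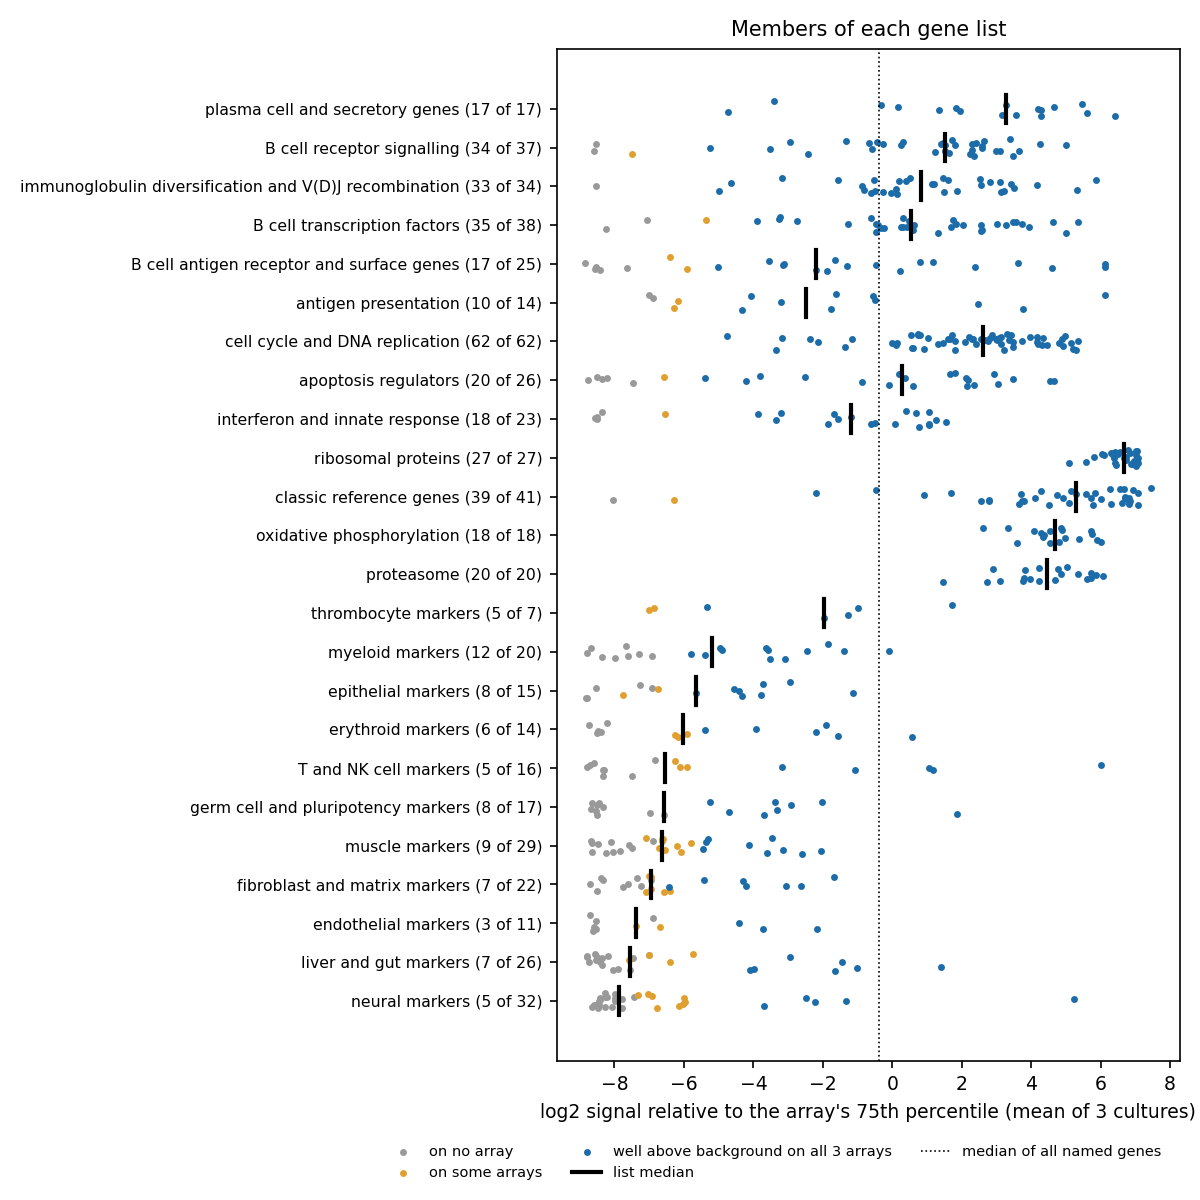
Level (log2 signal relative to the array's 75th percentile, mean of 3 cultures) of every member of 24 gene lists, coloured by detection, with the list's median as a bar and the median of all named genes (-0.37) as a dotted line. The numbers after a list's name are the members detected on all 3 arrays of those with a named probe; B cell signalling, secretory and housekeeping lists lie mostly right of the dotted line, and the lists of other lineages mostly left of it.

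Most B cell genes were detected. Of 164 genes in 6 B cell lists, 145 (88.4%) were detected on all 3 arrays and 13 on none, beside 74.8% and 19.0% of all named genes, and their median level was 0.50 against -0.37. The share differed between the lists. It was 91.9% to 100% in signalling, transcription factor, diversification and secretory genes, but 68.0% in surface genes and 71.4% in antigen presentation. The surface and antigen presentation lists had medians of -2.19 and -2.48, below that of all named genes. Of the markers taken to define a B cell, 6 had a named probe and all 6 were detected on all 3 arrays, beside 74.8% of all named genes. They were CD79B, PAX5, EBF1, BTK, CD72 and POU2AF1. The marker sets of other lineages were detected in part or in full. The counts were 3 of 6 for T and NK cells, 2 of 3 myeloid, 1 of 1 erythroid and 1 of 1 thrombocyte. For fibroblasts they were 1 of 3 and for epithelium 1 of 2. IGLL1 and BLNK are not analysed here.

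CD79B, the signalling chain of the antigen receptor, was among the brightest B cell genes, with levels of 6.17, 6.04 and 6.15. CD74, the invariant chain of MHC class II, had 6.25, 6.08 and 6.06. IL2RG, the common cytokine receptor chain, had 4.70, 4.52 and 4.60. All of these lay close together across cultures and far above the floor. CD72, an inhibitory receptor of B cells, stood at 2.38 ± 0.11, and PTPRC, the phosphatase CD45, at 0.21 ± 0.08 (SD, n = 3 each). The second probe of CD72 was detected at -2.46.

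The dimmest surface genes detected on all 3 arrays were CD40, CD38 and IL21R. CD40, which receives T cell help, had levels of -3.06, -3.26 and -3.16, and CD38, an ectoenzyme, had -3.03, -3.83 and -3.81, higher in culture 1 than in the others. IL21R had -5.02 ± 0.08, from 1 of its 2 probes. In all, 17 of 25 receptor and surface genes (68.0%) were detected on all 3 arrays, beside 74.8% of all named genes, and the list's median level was -2.19. ICOSLG was detected in cultures 1 and 2 only, at -5.84 and -5.79. LY86, a partner of a B cell Toll-like protein, was detected in culture 2 only, at -4.24, with -7.02 and -7.91 in cultures 1 and 3. GPR183, CD86, CD9, CCR7, IL7R and CD274 were detected on no array, with mean levels between -8.84 and -7.65. They include the costimulatory ligand CD86 and the receptors CCR7 and IL7R, which guide homing and early lymphoid growth in mammals.

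Of 37 genes of antigen receptor signalling, 34 (91.9%, beside 74.8% of all named genes) were detected on all 3 arrays. The list median was 1.52. LYN, the SRC-family kinase at the top of the pathway, was the brightest at 5.07, 4.90 and 5.05. PTPN6, the phosphatase SHP-1, had 4.36, 4.27 and 4.13, and HCLS1, a substrate that binds actin, had 3.71, 3.62 and 3.59. The other probes of PTPN6 averaged 1.99 and -1.77. BTK stood at 3.38 ± 0.11 and SYK at -0.26 ± 0.03. LYN and BTK thus lay above the median of all named genes, and SYK lay close to it. The value of LYN is that of the brightest of 4 probes, of which the next averaged 0.76. The dimmest detected members were ITPR1, a calcium channel of internal stores, at -2.94 ± 0.03, the kinase BRAF at -3.52 ± 0.01 and the ubiquitin ligase CBL at -5.25 ± 0.19. FYN, another SRC-family kinase, had -8.61, -9.01 and -8.18 and was detected in no culture, as was the adaptor SH3BP2. MAPK8 was detected in culture 1 only, at -6.29.

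Among 38 transcription factors of B cells, 35 (92.1%, beside 74.8% of all named genes) were detected on all 3 arrays. The brightest were E2F1, a factor of the G1 to S transition, at 5.36 ± 0.12, POU2AF1, the B cell coactivator OBF-1, at 5.02 ± 0.09 and MYC at 4.63 ± 0.06. The other probes of POU2AF1 were detected at 1.56 and -0.87, and the dimmest of the 3 probes of E2F1 at 1.15. MYC had 4.68, 4.57 and 4.64 in the 3 cultures. The virus that gave rise to the line is known to have inserted near this gene. IRF4, the factor studied in the series, was detected by both of its probes. Its brighter probe had levels of 3.16, 2.96 and 2.91 and its dimmer probe averaged -3.12, so the value of this gene depended on the probe by 6.13 log2 units.

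BCL6, the repressor of the germinal centre, had 2.56, 2.58 and 2.52 at the brightest of 4 probes, of which the dimmest averaged -2.06. EBF1 had 0.31, 0.27 and 0.31, and SPI1, the factor PU.1 shared with myeloid cells, had -0.53, -0.42 and -0.45. The cultures lay close together for these genes, with SDs of at most 0.06. PAX5, which maintains B cell identity, was dim but detected, at -2.69, -2.77 and -2.76 from 1 probe. FOXP1, ETV6 and LMO2 were the dimmest detected factors, at -3.22, -3.25 and -3.90. LEF1 was detected on part of the arrays, and BACH1 and IKZF2 were detected on none.

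Genes of immunoglobulin diversification and DNA repair were detected in 33 of 34 cases (97.1%), beside 74.8% of all named genes. The list median was 0.83. PARP1, a sensor of DNA breaks, was the brightest at 5.89, 5.86 and 5.85, followed by HMGB1, a DNA-bending cofactor of the RAG recombinase, at 5.28, 5.35 and 5.32. BRCA1 and BRCA2, which act in homologous recombination, had 1.20 ± 0.07 and 1.13 ± 0.07. UNG, the uracil glycosylase that acts on deaminated cytosines, had -0.70, -0.62 and -0.56.

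RAG1 and DNTT, enzymes of V(D)J joining in lymphocyte precursors, had low levels. RAG1 was the member detected on no array, with -8.73, -8.86 and -8.00 at the brighter of 2 probes. DNTT, which adds untemplated bases to coding ends, had -4.81, -4.64 and -4.46 at 1 of 2 probes. RAG2 is not analysed here. The nuclease DCLRE1C (Artemis) was the dimmest detected member at -4.98 ± 0.03, and FANCD2, of the Fanconi anaemia pathway, had -3.17 ± 0.08.

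All 17 plasma cell and secretory genes were detected, beside 74.8% of all named genes, at a list median of 3.27. ATF4, a factor of the stress response to unfolded proteins, had 6.43, 6.40 and 6.41, and the chaperones HSPA5 and CANX of the endoplasmic reticulum had 5.61 ± 0.08 and 5.46 ± 0.02. XBP1 had 4.63, 4.63 and 4.72. JCHAIN, the joining chain of polymeric antibodies, had 1.86, 1.78 and 1.86. PRDM1 is not analysed here. DNAJB9, SEL1L and CREB3L2 were the dimmest members, at -0.33, -3.41 and -4.73.

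Genes of antigen presentation were detected on all 3 arrays in 10 of 14 cases, or 71.4%, close to the 74.8% of all named genes. For MHC class II, CD74 was among the bright genes given above, and the beta chain BLB1 had -4.02, -4.11 and -4.04. The chaperone chains DMA and DMB2, which load peptides on class II, had -0.56 ± 0.04 and -4.32 ± 0.06. For class I, BF1 had -6.65, -7.22 and -6.83 and BF2 had -7.27, -6.82 and -6.92, and neither was detected on any array by 5 and 2 probes. B2M and the peptide transporter TAP1, at a mean of -6.29 and -6.16, were detected in cultures 1 and 2 only. Other members of the class I pathway were detected on all 3 arrays: the second transporter chain TAP2 at -1.75 ± 0.13 and tapasin, TAPBP, at -0.51 ± 0.08. The protease CTSS, which trims the invariant chain, stood at 3.77 ± 0.08, and RFXANK, a regulator of class II genes, at 2.46 ± 0.05. How well the probes match the class I alleles of the line was not tested.

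**Figure D4:**
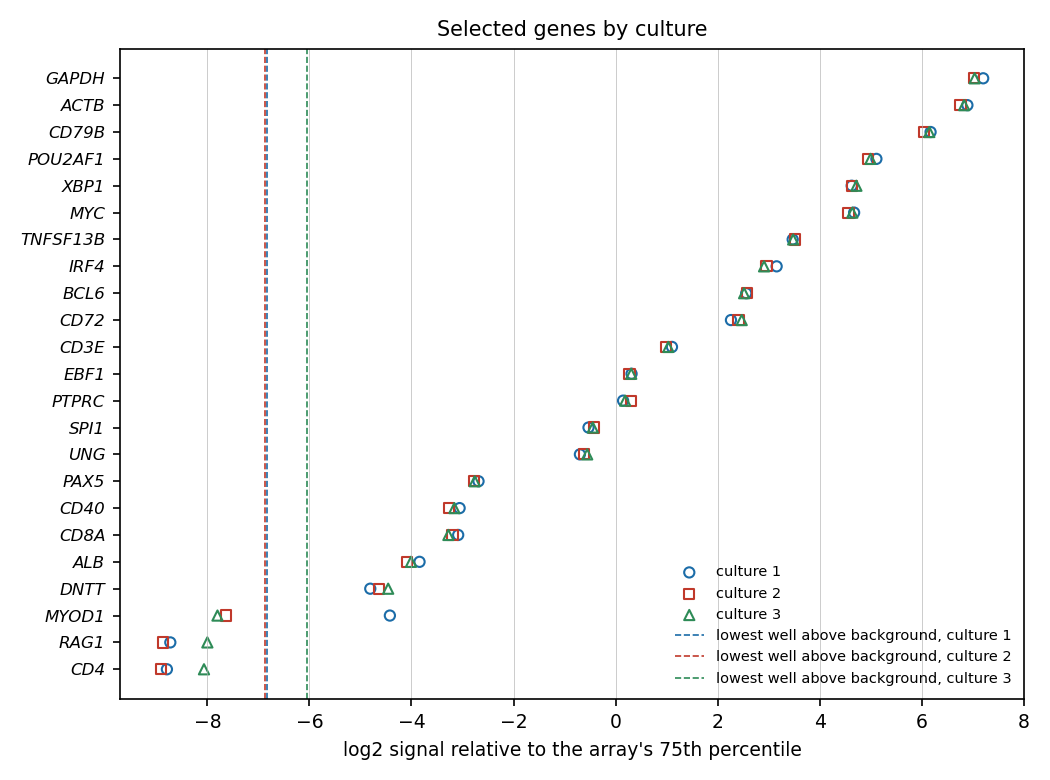
Level (log2 signal relative to the array's 75th percentile) of 23 selected genes in each of the 3 wild-type cultures, ordered by mean, with the lowest level called well above background on each array as dashed lines. The symbols of the 3 cultures nearly coincide for genes right of the dashed lines, and MYOD1, RAG1 and CD4 lie wholly or partly left of them.

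Most markers of other lineages were not detected on all 3 arrays, and most of those that were had low levels. Of 209 genes in 11 lists, 75 (35.9%) were detected on all 3 arrays and 95 (45.5%) on none, beside 74.8% and 19.0% of all named genes, and their median level was -6.90. Of the 75 detected genes, 62 (82.7%) lay in the dimmest 25% of all detected named genes. Of the 57 of them with several probes, 38 had at least 1 probe that was not detected on all arrays. In RNA from whole cultures, few cells with much of a transcript and many cells with little of it cannot be told apart.

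The T and NK cell list held the brightest exception. CD3D, a chain of the T cell receptor complex, had levels of 6.04, 6.01 and 5.98, brighter than 98.4% of named genes. Its second probe was also detected, at 3.16. CD3E had 1.11, 0.99 and 1.03, CD247, the zeta chain, had -1.08, -1.06 and -1.06, and CD5, which B cells can also carry, had 1.13, 1.20 and 1.18. CD8A had -3.08, -3.20 and -3.28, detected by all 3 of its probes. The other probes of CD3E were detected at -2.11 and -3.35, and 1 of the 3 probes of CD247 was detected on no array, at -8.36. Chains of the CD3 complex were thus detected in each culture, with little spread.

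Other T cell genes were not detected with them. CD4 had -8.79, -8.91 and -8.07, and CD28, GATA3, CTLA4, ICOS, IL2, IFNG and GZMA were likewise detected on no array, with means between -8.80 and -6.83. They include the costimulatory receptors CD28 and ICOS, the T helper factor GATA3 and the cytokines IL2 and IFNG. CD7, CD40LG and TCF7 were detected in cultures 1 and 2 only, at means of -5.92, -6.11 and -6.27.

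Myeloid genes were detected in 12 of 20 cases (60%), beside 74.8% of all named genes, at a list median below theirs. Of the 12, 11 lay in the dimmest 25%. TLR2, a receptor for bacterial lipoproteins that B cells can share, was the brightest at -0.09 ± 0.04, followed by CYBB, of the phagocyte oxidase, at -1.38 ± 0.05 and LYZ, lysozyme, at -1.84 ± 0.05. CEBPA, a myeloid transcription factor, had -4.21, -5.19 and -5.33, higher in culture 1. CD14, CSF3R and MARCO were detected on no array. CSF1R is not analysed here.

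Erythroid genes were detected in 6 of 14 cases (42.9%), beside 74.8% of all named genes. BPGM, the mutase that makes bisphosphoglycerate in red cells, had 0.58 ± 0.06, and TFRC and EPB41, a protein of the membrane skeleton, had -2.19 and -1.92. The second probe of BPGM averaged -5.90 and was not detected on all arrays. Of the globins, HBAD had -3.86, -3.86 and -4.07 and HBBA had -5.24, -5.42 and -5.53, both detected in all cultures. HBA1 and HBE were detected in cultures 1 and 2 only, and HBZ, HBE1, TAL1, GFI1B and RHAG on no array. GATA1 is not analysed here. Thrombocyte genes were detected in 5 of 7 cases (71.4%), close to the 74.8% of all named genes, the brightest being RAP1B, a widely used small GTPase, at 1.72 ± 0.03. The integrin ITGB3 had -1.97 ± 0.13 at 1 of 2 probes.

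Outside the blood, the brightest marker was STMN2. This neuronal regulator of microtubules had 5.25, 5.18 and 5.30 at its only probe, against a list median of -7.88. The other 4 neural genes detected on all 3 arrays of 32 were NCAM1, NEUROD1, SYT1 and OLIG2, with means between -3.71 and -1.34. NCAM1, an adhesion molecule, was detected at 1 of its 6 probes. DCX, SYP, ELAVL4, NEFM and SOX2 were detected on no array. In all, 19 of the 32 neural genes (59.4%) were detected on none, beside 19.0% of all named genes.

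Fibroblast and matrix genes were detected in 7 of 22 cases (31.8%), beside 74.8% of all named genes. All 7 lay in the dimmest 25%. COL1A2, a chain of type I collagen, had -1.68, -1.74 and -1.62 at 1 probe, while 2 of its 5 probes were detected on all arrays and the dimmest averaged -8.45. MGP, SPARC, COL6A3, COL5A1, BGN and ACTA2 had means between -6.42 and -2.62. DCN, POSTN, PDGFRA and VCAN were detected on no array, and COL1A1 is not analysed here.

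Epithelial genes were detected in 8 of 15 cases (53.3%), beside 74.8% of all named genes. The brightest of the list was the claudin CLDN5 at -1.12 ± 0.12, with 1 of 4 probes detected on no array, at -7.83. OCLN followed at -2.93 ± 0.22, and CDH1, E-cadherin, had -5.65 ± 0.26. EPCAM, DSP and CDX2 were detected on none, and KRT18 is not analysed here. Endothelial genes were detected in 3 of 11 cases (27.3%), ENG, SOX17 and ANGPT2, while CDH5, FLT1, ERG and LYVE1 were detected on none.

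Muscle genes were detected in 9 of 29 cases (31.0%), beside 74.8% of all named genes. The brightest of the list were PAX3 at -2.04 ± 0.07 and TNNC2, a troponin, at -2.59 ± 0.03. MYOD1, the muscle determination factor, had -4.42 in culture 1, where it was detected, and -7.63 and -7.80 in cultures 2 and 3. Its second probe averaged -8.54 and was detected on no array. MYF6 had -2.63 in culture 3 and -7.95 and -8.02 in cultures 1 and 2. NKX2-5 was detected in culture 2 alone, at -4.16. Each of these stood out in 1 culture only, and a different one each time.

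Liver and gut genes were detected in 7 of 26 cases (26.9%), beside 74.8% of all named genes. AMY2A, pancreatic amylase, had 1.47, 1.31 and 1.43, with all 4 probes detected, and the protease CPA1 had -1.02 ± 0.07. ALB, serum albumin, had -3.84, -4.09 and -4.01 at 1 of 2 probes. FOXA2, HNF4A, TTR, FABP1 and RBP4 were detected on none. Of 17 germ cell and pluripotency genes, 8 (47.1%) were detected, and NANOG, DDX4, DAZL, LIN28A and KIT were not. TERT, the catalytic subunit of telomerase, had 1.85, 1.90 and 1.82 at the brightest of 26 probes. Its probes disagreed widely: 22 of 26 were detected on all arrays, with a median probe level of -4.75.

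All 62 genes of the cell cycle and DNA replication were detected, beside 74.8% of all named genes, at a median level of 2.60. E2F1 is given above, and next came CDC20, an activator of the anaphase-promoting complex, at 5.30 ± 0.02 and CDK1, the mitotic kinase, at 5.21 ± 0.04. The 3 lowest levels belonged to inhibitors and a cyclin. CDKN1A, the inhibitor p21, had -3.16, -3.25 and -3.12, CCNE1, a cyclin of S phase entry, had -3.38, -3.33 and -3.32, and CDKN2B had -4.95, -4.60 and -4.73. CDKN2A, of the same list, was bright, at 4.24, 4.26 and 4.42.

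Apoptosis regulators were detected in 20 of 26 cases (76.9%), close to the 74.8% of all named genes, and were led by AIFM1 at 4.66 ± 0.07, CYCS, cytochrome c, at 4.56 ± 0.07 and TNFSF13B, the B cell survival factor BAFF, at 3.49 ± 0.02. TNFSF13B had 3.47, 3.51 and 3.48 at the brightest of 5 probes. All 5 were detected, but their median was 0.62 and the dimmest averaged -2.23. Of the survival proteins, BCL2L1 had 3.04 ± 0.002 and BCL2 had -4.20 ± 0.06. FAS, the death receptor, BCL2A1 and DIABLO were detected on no array.

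Interferon and innate response genes were detected in 18 of 23 cases (78.3%), close to the 74.8% of all named genes, at a list median of -1.19. The kinase JAK1 was the brightest at 1.57, 1.52 and 1.60, with the RNA sensor TLR7 at 1.30, 1.30 and 1.19 and the receptor chain IFNGR2 at 1.06, 1.07 and 1.07. IRF7, JAK2 and TLR21, the avian receptor for bacterial DNA, were the dimmest detected members, at -3.20, -3.35 and -3.88. MX1, an effector induced by interferon, had -8.74, -8.81 and -7.95, and IFIH1 and TLR3, sensors of double-stranded RNA, were also detected on no array.

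The 3 cultures gave nearly the same profile. Across named genes detected on all 3 arrays, Pearson's r between 2 cultures lay from 0.998 to 0.999, a description over genes, which are not independent replicates. The median SD of a gene over the 3 cultures was 0.048 log2 units over 3656 genes, and 98.4% of them had all 3 levels within 0.5 log2 units. Each array lay on a slide of its own, so differences between cultures and between slides cannot be told apart.

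The spread was widest for dim genes. It had a median SD of 0.075 in the dimmest of 4 equal groups of 914 genes, and 0.042, 0.036 and 0.052 in the next groups, so it rose again a little among the brightest. Culture 1 was the one farthest from the other cultures in 42.9% of genes. For 39 probes printed 5 times on each array, the spots of 1 array had a median SD of 0.058, 0.052 and 0.055. The means of the same probes had a median SD of 0.037 between cultures, and since a mean of 5 spots varies less than 1 spot, these SDs are not on the same footing.

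Only 23 genes (0.629%) had a range over 2-fold between cultures, and 22 of them lay in the dimmest of those 4 groups. In 22 of the 23, the highest culture lay farther from the middle one than the lowest did. The highest was culture 3 in 11 of these genes. CAT, the catalase that breaks down hydrogen peroxide, had the largest SD (1.69), with signals of 31.5, 49.3 and 280 and levels of -6.56, -5.98 and -3.40. CRYBA4, a lens crystallin, had 821, 165 and 164, high in culture 1. NPPA, the atrial natriuretic peptide, had 264, 55.4 and 218, low in culture 2. On the same scale, the brightest negative control spot had 265, 248 and 585 in cultures 1, 2 and 3.

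GBP, a guanylate-binding protein, had signals of 55.8, 244 and 50.2, and the cytokine IL17A had 67.8, 260 and 59.2, both high in culture 2. TBC1D13, MPPED2, GSTT1 and HOXA11 were high in culture 3, with SDs between 0.96 and 1.11. CACNA1D, a calcium channel subunit, was high in culture 2, with an SD of 1.05, and 3 of its 4 probes were detected on no array. The single gene outside the dimmest group was PCDHA6, a protocadherin, with levels of 2.32, 1.11 and 0.92 and its other probe not detected. Of the 23 genes, 14 had 1 probe only, so no second probe could show whether the transcript moved with it. Among the others, only HEBP1 had further probes detected on all 3 arrays. Its brightest probe had -3.56, -3.50 and -2.26. The further probes had -3.58, -3.50 and -3.60, and -4.65, -4.63 and -4.68, so they did not rise in culture 3. In the remaining genes the other probes were detected on no array, except a probe of RARB. That probe was detected on 2 arrays, with -5.91, -5.98 and -6.09.

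High values in 1 culture also occurred among genes detected on part of the arrays. Of 298 such genes with a value in each culture, 72 had 1 culture more than 2-fold above the next. This was culture 1 in 36, culture 2 in 28 and culture 3 in 8. The genes were picked by their detection flags, so a high value in 1 culture is partly built into the set. The array of culture 3 also had the higher floor, and its effect on these counts was not tested. THY1, a surface protein of fibroblasts and neurons, had -3.56 in culture 1 and -8.99 and -8.32 in cultures 2 and 3. These are values of the brightest of its 4 probes, of which the dimmest averaged -8.76. KDR, a receptor for vascular endothelial growth factor, had -5.21 in culture 2 and -8.59 and -8.35 in cultures 1 and 3. Here the brightest of 5 probes is given, and the dimmest averaged -8.56. No probe of THY1 or KDR was detected on more than 1 array.

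**Figure D5:**
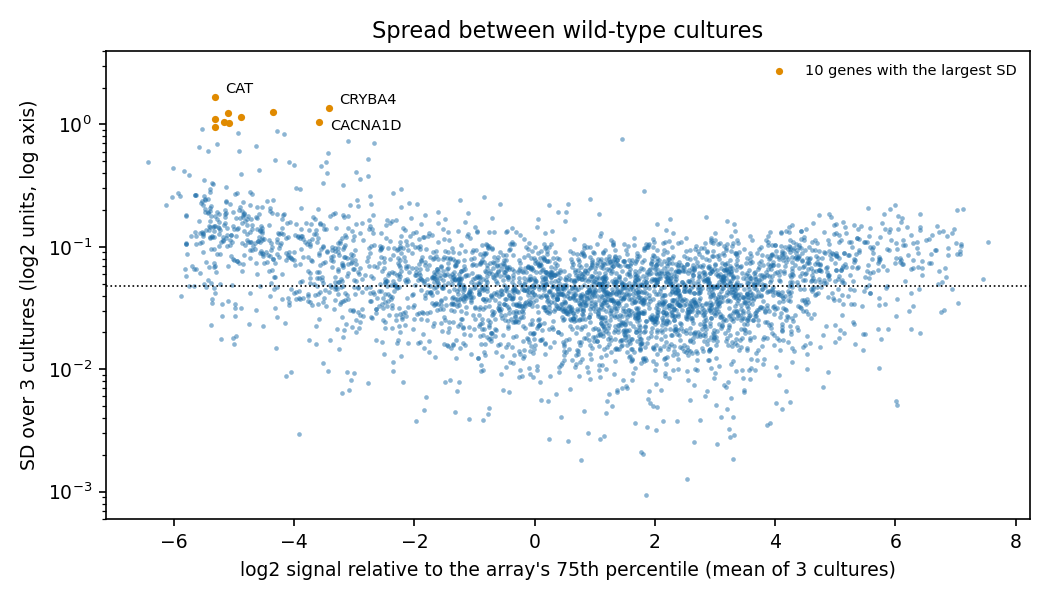
SD of the level over the 3 wild-type cultures (log2 units, log axis) against the mean level (log2 signal relative to the array's 75th percentile) for 3656 named genes detected on all 3 arrays, with the median SD of 0.048 as a dotted line. The 10 genes with the largest SD, in orange, all have mean levels below -3.4.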

How the data were processed

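RNA of 3 independent wild-type DT40 cultures was labelled with Cy3 for one-colour Agilent arrays, per the labels' protocols. The labels' dye field reads biotin, but the deposited files hold 1 green channel. Culture numbers came from the sample titles. The main intensity values were background-subtracted by Feature Extraction 10.7.1.1 and not scaled between arrays, per the file headers, which name the galGal3 annotation. The detection and outlier codes are those of the deposited files. The authors' deposited table, also linear intensity, shares 1 median (225.7) across its columns; how it was made is not stated. The submitters' processing notes list limma and R 2.12.0.

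Here the deposited values were taken as log2, relative to the 75th percentile of their array. Control spots (1417) and outlier spots (79 to 103 an array) were dropped, and repeat spots were averaged. A probe counted as detected when most of its remaining spots were well above background, and a gene when any of its probes was. Accessions stripped of versions matched a GRCg7b RefSeq table for 10691 of 43603 probes (24.5%). This gave 4886 genes over 10619 probes, after 46 placeholder symbols were set aside. No coordinates are given because the assemblies differ.

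The genes and the 25 lists were chosen with earlier results of these data known. The rule named the 25 brightest genes, the 10 with the largest SD, and in each list the 3 brightest and 3 dimmest detected members, those detected on part of the arrays and up to 12 on none. Detected members of other-lineage lists and a set of further genes could be named whatever their value. SYK, BTK, DMA, TAP2, TAPBP, BRCA1, BRCA2, JCHAIN, CDKN2A, BCL2L1, PCDHA6, HEBP1 and RARB were chosen after their values were seen.

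Python 3.11.15, pandas 2.3.3 and limma 3.58.1 in R 4.3.3 were used. The spread calculation was tested on simulated data. No model was fitted to compare groups. Alternatives were median and quantile scaling, normexp on median signals (in place of the planned mean signals), the authors' values, outliers kept, the mean of all probes, other detection rules, synonym matching and leaving out each culture. Some genes are not reported here. Precision is limited by the 3 arrays and by signal over background.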

Additional observations from a re-analysis of the deposited data

How the results depend on the processing

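No paired analysis was possible because the description covers 1 group and makes no test. Scaling by the median moves all levels of an array by the same amount, so it could not change the brightest genes or a correlation. The median SD was then 0.0486, beside 0.0478 in the main setting. Scaling by quantiles and the authors' deposited values kept the number of the 25 brightest genes and the median SD within their spread. They also kept the lowest correlation between 2 cultures (0.99849 in the main setting) within its spread. That correlation was 0.99896 with normexp on median signals, 0.99808 with outlier spots kept and 0.99794 with the mean of all probes. With the mean of all probes, 14 of the 25 brightest genes remained, and HSP90AA1, GAPDH, ENO1 and ACTB were among those that left. With the scanner's looser flag (positive and significant), detection on all arrays reached 69.8% of all features and 82.7% of named genes, and the detected members were 10 T and NK cell, 13 fibroblast, 5 endothelial, 14 neural, 19 muscle and 11 liver and gut genes. With detection on at least 2 of 3 arrays the shares were 63.3% and 78.2%, with 8 T and NK cell and 9 neural genes. Matching by synonyms gave 2 W-linked genes. Leaving out 1 culture in turn gave 58.2% to 63.2% of features, 74.9% to 78.1% of named genes, 5 to 8 T and NK cell genes and 5 to 9 neural genes, with each upper value reached without culture 3. Lists of B cell, housekeeping and process genes, W-linked genes aside, stayed within 1.5 times their counts under each alternative. Of the single genes, IRF4 moved most by the probe rule, being brighter than 82.8% of named genes by its brightest probe and than 62.6% by the mean of its probes. TNFSF13B, CD72, POU2AF1 and CD3E followed, with TNFSF13B going from 87.3% to 71.5%. Levels near the floor are limited by the background of each array.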

Other observations

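Genes grouped by the letters that open their symbol, for groups of at least 15 named genes, gave detection shares from 27.3% to 100%. These groups and the HOX genes below were chosen after the values were seen. Genes opening with IL, mostly interleukins and their receptors, were detected on all 3 arrays in 9 of 33 cases and on none in 21, at a median level of -8.29. Those opening with CYP, mostly cytochrome P450 enzymes, were detected in 5 of 16 cases, and those with COL, mostly collagens, in 6 of 16. Solute carriers (SLC) were detected in 63 of 88 cases (71.6%), at a median of -1.29, beside 74.8% of all named genes. All 25 genes opening with EIF, mostly translation initiation factors, were detected, at a median of 4.90. So were all 18 opening with UBE, mostly ubiquitin-conjugating enzymes, and all 17 opening with RAB, small GTPases of vesicle traffic.

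HOX genes set position along the body axis. They were detected on all 3 arrays in 2 of 15 cases, beside 74.8% of all named genes. HOXA4 had levels of -2.26, -2.25 and -2.34 in cultures 1, 2 and 3, and HOXA11 is the variable gene described above. HOXD3 was detected in culture 3 only, at -3.59, with -9.07 and -9.11 in cultures 1 and 2. HOXA7 was detected in cultures 1 and 2, and the other 11 were detected on no array.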
